A study of Homo sapiens with 9 samples.

Results

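LM2 is a sub-population of the human breast cancer line MDA-MB-231 that was selected for growth in the lungs of mice, and Par is the parental line it came from. MDA-MB-231 is an established line of triple-negative breast cancer, without estrogen receptor, progesterone receptor or amplified HER2, and it is usually placed among claudin-low lines, which have few epithelial junction proteins and many mesenchymal ones. The comparison took the 6 libraries of LM2 and Par, 3 biological replicates each, of the 9 RNA-seq libraries of the series, and all 58884 genes in the count table. The 3 libraries of BrM2, the sub-population selected for growth in the brain, entered the same fit, and their levels are given beside the others. The lines carried no treatment or engineered allele in the labels, and all were cultured as monolayers in the same medium with serum. The replicates were harvested at different passages, and each of LM2 and BrM2 is a single selected sub-population, so that the 3 libraries of a line show the spread of its cultures and not that of independently selected lines.

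To grow in the lung, tumor cells that leave a primary site have to cross the vessel wall, survive among host immune cells and obtain matrix, growth factors and nutrients from a foreign tissue. Proteases, matrix proteins, cytokines, antigen presentation and amino acid supply have each been tied to this in earlier studies. The cells here had no host tissue around them, so every value below is the level that a line kept in culture.

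Counts on genes totalled 23581487 to 24511786 per library in LM2 and 19878879 to 23948742 in Par. Expression is given as normalized CPM, which is the count of a gene scaled to a common library size with TMM factors. The 3 values given for a line are those of replicates 1, 2 and 3, and where a log2 fold change is given for a rise or fall without its p, the adjusted p was under 0.05. CPM are not divided by transcript length, and they are therefore compared between lines and not between genes. In these bulk samples, a change in the RNA per cell and a change in the share of cells with that RNA cannot be told apart. LM2 and Par libraries of 1 replicate number shared their deviations, with correlations of the deviations across genes of 0.884, 0.503 and 0.809 for replicates 1, 2 and 3. Replicates 2 and 3 were not told apart by this measure: LM2 replicate 2 was closer to Par replicate 3 (0.676) than to Par replicate 2, and LM2 replicate 3 and Par replicate 2 had 0.389. Replicate 1 stood apart from the others in all 3 lines, with 73.5% of the tested genes different at an adjusted p under 0.05, and its change followed the GC content of the transcripts (Spearman correlation 0.798 over genes, which are no independent replicates). The replicate number was a block in the model, and results are also given from a fit with GC correction and one with no replicate block. The libraries were also checked for markers of other cells. Of 10 lung epithelial markers, 9 were at or under 3 counts in all 9 libraries, among them the surfactant genes SFTPB and SFTPC, while AGER was detected in all, and PTPRC, the pan-leukocyte marker, had at most 3 counts in LM2 and Par. Summed leukocyte marker CPM ran from 1.72 to 3.62 in LM2 and from 2.91 to 5.46 in Par, summed endothelial marker CPM from 63.0 to 126 in LM2 and from 90.3 to 112 in Par, and summed fibroblast and smooth muscle marker CPM from 42.7 to 69.4 in LM2 and from 34.7 to 42.6 in Par. The last range rested mostly on COL1A1 and PDGFRB, while DCN had no count in LM2 or Par. Of 18 breast epithelial and claudin-low line markers, 12 passed the filter on low counts, and CDH1, CLDN3, ESR1 and PGR were among those that did not. Other epithelial markers were detected. CLDN4 had 1850 to 2197 counts in Par and 111 to 156 in LM2. Over both lines, CLDN7 had 156 to 304 counts and EPCAM 55 to 202. KRT8, KRT18 and KRT19 had at least 760 counts in each LM2 and Par library.

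Of 13001 genes tested, LM2 had higher levels of 2011 and lower levels of 2476 than Par (edgeR's quasi-likelihood test with the replicate block, adjusted p under 0.05). This is the background against which each group of genes is read below: 15.5% of tested genes were higher, 19.0% were lower, and 34.5% were called in either direction. The median log2 fold change of all tested genes was -0.016. The libraries of LM2 and Par did not overlap in 25.1% of the tested genes. With GC correction, 22.8% were higher and 22.3% lower. With no replicate block, 542 genes were higher and 583 lower. The counts rested most on replicate 3, without which in all 3 lines 1002 genes were higher and 1128 lower. Without LM2 replicate 2, 1303 were higher and 1472 lower, without LM2 replicate 3, 1329 and 1613, and without Par replicate 3, 1192 and 1703. Between LM2 and BrM2, 37.5% of the tested genes differed in the same fit. The plot of called members by gene list shows how unevenly these calls were spread over gene groups.

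**Figure D1:**
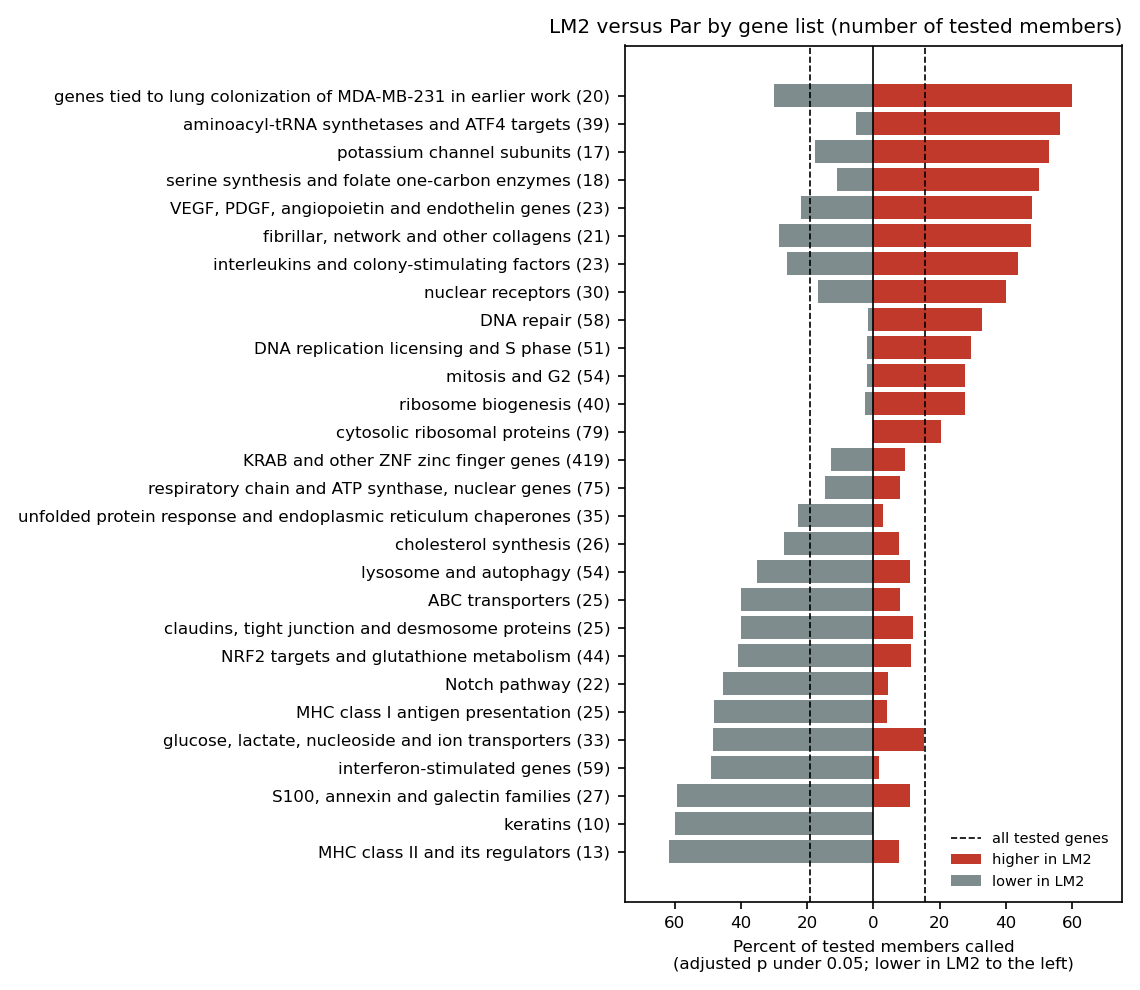
Percent of the tested members of 28 gene lists that were higher (red, right) or lower (grey, left) in LM2 than in Par at an adjusted p under 0.05, with the number of tested members after each name; dashed lines give the 15.5% and 19.0% of all tested genes. Lists of matrix, cytokine, amino acid and proliferation genes reach beyond the right line, lists of interferon, antigen presentation, keratin and transporter genes beyond the left one, and the zinc finger and respiratory chain lists stay inside both. The collagen, interleukin, VEGF and lung colonization lists pass both lines, with 28.6%, 26.1%, 21.7% and 30% of members lower.

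Among the largest single changes were genes that went from near silence to a clear level. FKBP10 (ENSG00000141756, chr17:41813004-41823213 in GRCh38.p14), a chaperone and prolyl isomerase for procollagen in the endoplasmic reticulum, had 165, 95.8 and 77.2 CPM in LM2, 0.315, 0.774 and 0.432 in Par and 42.9, 19.3 and 20.5 in BrM2. The lines did not overlap, with LM2 highest, BrM2 between and Par lowest. The log2 fold change was 7.7 against Par (SE 0.3, adjusted p = 8.6e-08) and 2.05 against BrM2 (adjusted p = 3.8e-05). SYNDIG1, a membrane protein known from excitatory synapses, was at or under 3 counts in each Par library and had 31.8, 20.6 and 16.6 CPM in LM2, a ratio of summed normalized counts of 208 (95% exact interval for counting error 100 to 517). LCP1 (ENSG00000136167, chr13:46125923-46182177) encodes L-plastin, an actin bundling protein of leukocytes that many carcinoma lines also express. It rose from 1.94, 1.26 and 3.18 CPM in Par to 140, 136 and 147 CPM in LM2, against 3.76, 3.22 and 3.26 CPM in BrM2 (log2 fold change 6.05, SE 0.23, adjusted p = 8.6e-08 against Par, and 5.37 with adjusted p = 9.7e-08 against BrM2). MAGEB2, a cancer-testis antigen of the X chromosome, followed the same order with means of 22.5, 0.233 and 0.409 CPM in LM2, Par and BrM2. DCLK1, a microtubule-associated kinase, had means of 84.4, 2.21 and 5.03 CPM. AMPH, an endocytosis protein, TENM1, a teneurin adhesion receptor, and PTPRN2, a receptor-type phosphatase of secretory granules, rose by log2 fold changes of 6.84, 5.87 and 6.06. AMPH and TENM1 were higher still in BrM2 (-1.84 and -0.5 for LM2 against BrM2, adjusted p = 9.7e-05 and 0.016). These calls were kept with no replicate block and when any library or replicate number was left out, 9 fits in all.

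Genes lost from LM2 included secreted and luminal ones. HSD3B1, which makes delta-4 steroids from their precursors, had no count in any LM2 or BrM2 library and 6.25, 4.79 and 6.37 CPM in Par, at least 45.6-fold lower in LM2 when each LM2 library is taken at 3 counts. RARRES2, which encodes the chemoattractant chemerin, had 64.8, 36.5 and 26.1 CPM in Par and 1.14, 0.775 and 0.805 CPM in LM2 (log2 fold change -5.47, SE 0.22, adjusted p = 8.6e-08). The cystatins CST1 and CST4, secreted inhibitors of cysteine proteases, fell by 6.53 and 5.22 on the log2 scale, and 23.6% and 30% of their 50-base stretches occur in each other or in another cystatin, so that part of their counts may be exchanged. WT1, a zinc finger transcription factor of the kidney and gonad, had 6.93, 7.6 and 6.72 CPM in Par and 0.0497, 0.122 and 0.23 CPM in LM2 (log2 fold change -5.6, SE 0.33, adjusted p = 7.7e-07). GALNT18, an enzyme that starts O-linked sugar chains, was lower in LM2 than in both other lines, with means of 0.921, 26.4 and 24.5 CPM in LM2, Par and BrM2 and a log2 difference of -4.68 between LM2 and BrM2 (adjusted p = 6.5e-07). SPINK4, a serine protease inhibitor, ALOX5, the 5-lipoxygenase of leukotriene synthesis, the noncoding RNA UCA1 and PLEKHS1 fell by 6.34, 5.26, 5.52 and 4.95. Their means in LM2 were between 0.094 and 0.434 CPM.

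**Figure D2:**
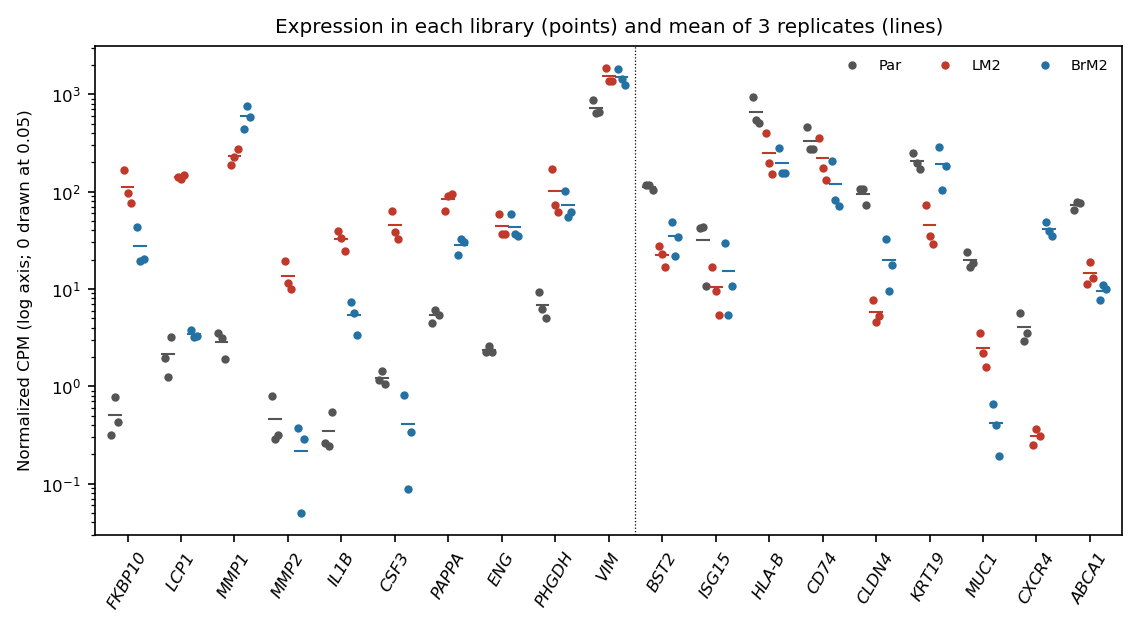
Normalized CPM (log axis) of 19 genes in each of the 3 Par, 3 LM2 and 3 BrM2 libraries, with lines at the means; genes left of the dotted line were higher in LM2 than in Par and genes right of it lower. FKBP10, LCP1 and CSF3 in LM2 stand more than 1 axis decade above Par, CSF3 and MMP2 are low in BrM2, and CXCR4 is lowest in LM2 and highest in BrM2.

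Genes that earlier work tied to lung colonization by this line moved in both directions. Of 20 tested, 12 rose and 6 fell, with a median log2 fold change of 0.967. The list was drawn from work on this same sub-population and is not independent evidence of its direction. MMP1 (ENSG00000196611, chr11:102789919-102798160), interstitial collagenase, had 189, 226 and 274 CPM in LM2, 3.57, 3.1 and 1.93 in Par and 439, 757 and 584 in BrM2. It rose by 6.34 (SE 0.27, adjusted p = 1e-07), and LM2 minus BrM2 was -1.35 (adjusted p = 0.00057). MMP2, a gelatinase that cleaves basement membrane collagen, had 19.4, 11.5 and 10 CPM in LM2, 0.788, 0.29 and 0.314 in Par and 0.369, 0.0 and 0.288 in BrM2. The LM2 libraries lay above all others, by 4.91 over Par (SE 0.35, adjusted p = 3.6e-06) and 6.02 over BrM2 (adjusted p = 2.6e-06). MMP3, or stromelysin, was at or under 3 counts in each Par library and had 2.09, 2.41 and 1.99 CPM in LM2, a ratio of summed normalized counts of 141 (95% exact interval for counting error 24.9 to 5600). These 3 were picked from a list that moved both ways. Of 14 tested matrix metalloproteinases and their tissue inhibitors, 5 rose and 5 fell (median -0.16), and 3 and 2 with no replicate block. VCAM1, a leukocyte adhesion receptor, rose by 1.37 (adjusted p = 0.0018) and was at or under 3 counts in each BrM2 library, a ratio of summed normalized counts of 166 (95% exact interval for counting error 56.5 to 807). TNC, or tenascin C, rose from 156, 156 and 127 to 258, 294 and 313 CPM (log2 fold change 0.98, SE 0.13, adjusted p = 0.00023), with 138 CPM on average in BrM2. ANGPTL4, which loosens endothelial junctions, the EGF receptor ligand EREG and the prostaglandin synthase PTGS2 rose by 1.5, 1.29 and 2.17. The call of PTGS2 was lost with no replicate block (adjusted p = 0.077). CXCR4, the receptor for CXCL12, went the other way with 0.248, 0.367 and 0.307 CPM in LM2, 5.62, 2.95 and 3.5 in Par and 48.5, 39.6 and 34.7 in BrM2. It fell by 3.62 from Par (SE 0.27, adjusted p = 4.7e-06) and LM2 minus BrM2 was -6.99 (adjusted p = 5.3e-08). NEDD9, a focal adhesion scaffold, ID1, an inhibitor of basic helix-loop-helix factors, and PLAAT4, a phospholipase induced by retinoids and interferon, fell by 3.03, 1.77 and 3.32. FSCN1, or fascin, which bundles actin in filopodia, did not pass (0.65, adjusted p = 0.085), and did with GC correction (1.27, adjusted p = 2.3e-06).

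Collagen and other matrix genes moved in both directions. Of 21 collagens tested, 10 rose and 6 fell (median 0.507). COL1A1, the alpha 1 chain of type I collagen, had 54.4, 41.1 and 35.1 CPM in LM2, 7.93, 7.74 and 4.83 in Par and 11.2, 4.55 and 7.29 in BrM2, and rose by 2.66 (SE 0.23, adjusted p = 1.1e-05). COL1A2, the alpha 2 chain of the same fibril, fell in LM2 by 2.26 (SE 0.18, adjusted p = 6.1e-06), from 32.8, 25.2 and 22.4 CPM in Par to 6.41, 4.77 and 5.48 CPM. The pair of chains thus moved in opposite directions, and neither gene's LM2 and Par libraries overlapped. COL4A1 of the basement membrane network and COL5A2 rose by 1.32 and 1.45, while COL6A3 and COL5A1 fell by 1.03 and 0.66. LAMA4, a laminin chain of vessel basement membranes, rose from 2.84, 4.07 and 3.54 to 31.3, 58.9 and 55.2 CPM, with 6.5, 9.85 and 9.97 CPM in BrM2 (log2 fold change 3.77, SE 0.16, adjusted p = 1e-07). LAMA1, the elastic fiber protein FBLN5 and the proteoglycan SPOCK1 rose by 3.16, 3.93 and 2.99. HSPG2, or perlecan, the large proteoglycan of basement membranes, fell by 1.53. Among proteoglycans and hyaluronan genes, SRGN, the serglycin core protein of secretory granules, rose from a mean of 36 to 362 CPM (log2 fold change 3.32, SE 0.15, adjusted p = 1.2e-07). HAS2, a hyaluronan synthase, rose by 2.21 and CEMIP, which takes hyaluronan apart, fell by 3.96, from 335, 244 and 258 CPM in Par to 21.2, 18 and 14.7 CPM in LM2. Enzymes that crosslink or trim matrix were more often lower, with 3 of 16 higher and 8 lower. Of them, 1 was higher and 1 lower with no replicate block. LOXL4 and LOXL1, lysyl oxidases, fell by 2.04 and 1.55, and BMP1, the procollagen C-proteinase, by 1.2. EFEMP1, or fibulin-3, fell by 2.51, the mesenchymal cadherin CDH11 by 2.97 and the aggrecanase-type protease ADAMTS15 by 2.1. Without replicate 3, 4 collagens were higher and 3 of the crosslinking and processing enzymes lower. Of the 21, 2 were higher and 2 lower with no replicate block.

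Cytokine genes also moved in both directions. Of 23 tested interleukin, colony-stimulating and tumor necrosis factor family genes, 10 rose and 6 fell (median 0.171), and 6 and 4 with no replicate block. The median moved between 0.166 and 0.509 over the alternatives, with 0.422 under GC correction, 0.41 without LM2 replicate 2, 0.356 without Par replicate 2 and as much without Par replicate 3. IL1B (ENSG00000125538, chr2:112829751-112836779), the secreted pyrogen interleukin 1 beta, had 39.4, 33.3 and 24.3 CPM in LM2, 0.263, 0.242 and 0.55 in Par and 7.31, 5.61 and 3.36 in BrM2. LM2 lay above BrM2 and BrM2 above Par without overlap, with a log2 fold change of 6.39 over Par (SE 0.32, adjusted p = 2.4e-07) and 2.6 over BrM2 (adjusted p = 1.8e-05). Of 25 inflammasome, toll-like receptor and cytosolic sensing genes, 6 rose, 5 fell and 14 did not pass (median -0.032). CASP1, the protease that cleaves pro-interleukin 1 beta, rose by 3.5 (SE 0.27, adjusted p = 6.3e-06) from a mean of 0.459 to 5.21 CPM, its sensor NLRP3 by 2.49 and the related CASP4 by 1.73. The DNA sensor AIM2 fell by 1.59. CSF3, or G-CSF, which drives neutrophil output, had 63.5, 38.4 and 32.7 CPM in LM2, 1.16, 1.45 and 1.06 in Par and 0.812, 0.0883 and 0.336 in BrM2, and was raised in LM2 over both (log2 fold change 5.13, SE 0.3, adjusted p = 7e-07 over Par, and 6.88 with adjusted p = 4e-07 over BrM2). TNFSF4 and CD70, costimulatory ligands for T cells, were higher in LM2, TNFSF4 by 2.96 and CD70, at or under 3 counts in each Par library, with a ratio of summed normalized counts of 58.5 (95% exact interval for counting error 15.9 to 488). Of 34 tested cytokine receptor genes, 10 rose and 12 fell (median -0.05), and 5 and 6 with no replicate block. Among those that rose were the receptor chains IL6R and IL7R, by 4.32 and 1.66. IL6 itself did not pass (-0.16, adjusted p = 0.74). The cytokine genes that fell were led by TNFSF10, the death ligand TRAIL, with 40.9, 42.3 and 52.8 CPM in Par and 1.84, 3.02 and 2.38 CPM in LM2 (log2 fold change -4.25, SE 0.2, adjusted p = 1.7e-07). BrM2 had 1.85, 3.18 and 2.11 CPM, a log2 difference from LM2 of 0.01 (SE 0.22). CSF1, the macrophage growth factor, fell from 367, 265 and 265 to 124, 51.3 and 65.9 CPM (log2 fold change -1.98, SE 0.15, adjusted p = 4.3e-06), and IL32 and TNFSF15 fell by 2.85 and 1.61. Of 7 chemokine genes tested, 3 fell and 2 rose. CCL2, which attracts monocytes, was at or under 3 counts in every LM2 library, had 2.57, 1.55 and 1.89 CPM in Par, a ratio of summed normalized counts of 15.6 (95% exact interval for counting error 7.95 to 34.8), and reached 42.1, 57.1 and 51.1 CPM in BrM2. The membrane-bound chemokines CX3CL1 and CXCL16 fell by 3.42 and 2.75, and ACKR3, a scavenging receptor for CXCL12, by 5.14. Of 32 tested NF-kappa-B subunits, regulators and targets, 6 rose and 13 fell (median -0.161). RELB, BCL3 and NFKBIA, subunits and inhibitors of this pathway, fell by 1.2, 1.44 and 0.91, and all of these calls were lost with no replicate block. In that fit 3 genes of the list were higher and 2 lower, so its excess of falls was not kept.

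Among growth factor lists in the fit with the replicate block, the one of vessel growth factors held more rises than falls and the others more falls. In the list of VEGF, PDGF, angiopoietin and endothelin genes, 11 of 23 rose and 5 fell (median 0.581), and with no replicate block 9 and 3 did. ENG, or endoglin, a coreceptor for TGF-beta on endothelial cells, had 58.9, 36.8 and 36.6 CPM in LM2, 2.26, 2.61 and 2.24 in Par and 59.2, 36.7 and 34.7 in BrM2 (log2 fold change 4.17, SE 0.19, adjusted p = 1.3e-07). The log2 difference between LM2 and BrM2 was 0.02 (SE 0.16, adjusted p = 0.92). ADM, the vasodilating peptide adrenomedullin, rose by 2.65 and PDGFD by 4.93, and their differences between LM2 and BrM2 were 0.08 (SE 0.23) and -0.53 (SE 0.25), neither past the threshold. PDGFRB, a PDGF receptor, fell by 2.37 and NRP2, a coreceptor for VEGF-C and semaphorins, by 1.16. VEGFA and VEGFC did not pass (-0.26 and -0.22, adjusted p = 0.1 and 0.25). PAPPA (ENSG00000182752, chr9:116153791-116402321), a metalloprotease that frees insulin-like growth factors from their binding proteins, had 63.8, 91.1 and 94.5 CPM in LM2, 4.52, 6.05 and 5.46 in Par and 22.2, 32.8 and 30.2 in BrM2, and rose by 3.95 (SE 0.13, adjusted p = 5.4e-08). IGFBP2, one of those binding proteins, rose by 4.69 from a mean of 0.13 to 3.93 CPM. AREG, an EGF receptor ligand, fell from 70.7, 58.6 and 60.5 to 6.16, 4.49 and 3.91 CPM (log2 fold change -3.72, SE 0.17, adjusted p = 1.2e-07), while EREG, its neighbour in the same family, rose as described above. MET, the hepatocyte growth factor receptor on chromosome 7, fell by 1.13. Of 23 fibroblast, hepatocyte and insulin-like growth factor genes, 8 rose and 10 fell (median -0.4), of 11 EGF family ligands and ERBB receptors 2 and 5, and of 43 TGF-beta and BMP pathway genes 7 and 15 (median -0.114). With no replicate block, 5 genes of the first of these lists were higher and 2 lower. The EGF list had 1 and 1 in that fit, and the TGF-beta list 0 and 2. Without replicate 3, the first list had 7 higher and 5 lower and the EGF list 2 and 1. The excess of falls in these 2 lists was thus not kept in either fit. In the Notch pathway, 1 of 22 genes rose and 10 fell, among them the ligand JAG2 (-2.18) and the coactivator MAML2 (-1.04), and NOTCH3 was the one that rose (0.96). With no replicate block, no Notch gene was called in edgeR's test and 1 higher and 3 lower had an unadjusted p under 0.05. In that fit the adjusted p of JAG2, MAML2 and NOTCH3 was 0.084, 0.19 and 0.16, and without replicate 3 2 Notch genes were lower. All 9 tested Hedgehog pathway genes passed, in opposite directions: the ligand SHH rose by 1.73 and the coreceptor BOC by 1.55, while the receptor and target PTCH1, the factor GLI2 and the coreceptor CDON fell by 0.96, 1.19 and 1.41. Without replicate 3, 3 of them were lower.

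Interferon-stimulated genes and antigen presentation genes were lower in LM2. Cells that sense interferon activate a transcription factor complex that binds an element with the letters GAAANNGAAA in the promoters of these genes and switches on antiviral proteins and the peptide loading machinery. Of 59 tested interferon-stimulated genes, 29 fell, 1 rose and 29 did not pass (median -0.492, against 19.0% lower and a median of -0.016 over all tested genes). The list's median log2 ratios were -0.588, -0.38 and -0.533 in replicates 1, 2 and 3 (0.5 CPM added).

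In the 300 bases from 250 before to 50 after the start of each gene (RefSeq, GRCh38.p14), GAAANNGAAA or its reverse complement TTTCNNTTTC was found in 30 of the 44 tested members with a promoter in the table (68.2%). Of all 35116 promoters, 1255 held it (3.57%), and of those of tested genes 404 of 9883 (4.09%). It was found in 17 of 21 members that fell (81.0%), in 12 of 22 that did not pass (54.5%) and in the 1 that rose. Over all tested genes it was found in 4.43% of the promoters of lower genes and 3.98% of those of higher ones. The stretches below hold the element, in capitals, with 20 bases on each side, for 6 members that fell and for EPSTI1, which rose. All lie upstream of the gene start.
ISG15, chr1:1013364-1013413, plus strand, 103 bases from element to start: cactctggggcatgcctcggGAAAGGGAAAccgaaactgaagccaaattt
IFIT1, chr10:89392487-89392536, plus strand, 106 bases from element to start: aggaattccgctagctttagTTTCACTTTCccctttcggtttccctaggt
BST2, chr19:17405725-17405774, minus strand, 114 bases from element to start: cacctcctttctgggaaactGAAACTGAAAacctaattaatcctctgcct
RSAD2, chr2:6877612-6877661, plus strand, 135 bases from element to start: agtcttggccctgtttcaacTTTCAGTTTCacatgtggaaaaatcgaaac
IFI27, chr14:94110608-94110657, plus strand, 98 bases from element to start: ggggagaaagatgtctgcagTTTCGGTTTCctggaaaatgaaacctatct
TAP1, chr6:32853803-32853852, minus strand, 118 bases from element to start: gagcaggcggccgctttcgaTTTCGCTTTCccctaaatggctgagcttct
EPSTI1, chr13:42992262-42992311, minus strand, 40 bases from element to start: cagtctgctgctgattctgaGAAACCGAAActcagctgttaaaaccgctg
The element stood in either orientation and in either group of genes. A match of letters is a description and not a bound site.

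RSAD2, or viperin, a radical SAM enzyme that blocks virus replication, had 0.0993, 0.245 and 0.153 CPM in LM2, 3.41, 2.28 and 2.67 in Par and 0.0, 0.177 and 0.0479 in BrM2, a log2 fold change of -3.98 (SE 0.45, adjusted p = 8e-05). IFI27 had 5.51, 3.47 and 2.22 CPM in LM2, 50.3, 30.7 and 28.5 in Par and 2.36, 0.486 and 1.39 in BrM2 (log2 fold change -3.32, SE 0.26, adjusted p = 6.6e-06). BST2, or tetherin, which holds budding viruses at the cell surface, had 27.4, 22.8 and 16.7 CPM in LM2, 118, 116 and 104 in Par and 49.2, 21.9 and 34.4 in BrM2 (log2 fold change -2.37, SE 0.21, adjusted p = 1.5e-05). No LM2 library of these 3 genes reached the lowest Par library. GBP2, a guanylate binding protein, fell by 1.95 and IFIT1, which binds foreign RNA, by 1.14. ISG15, a ubiquitin-like modifier, had 16.8, 9.43 and 5.44 CPM in LM2 and 42, 43.1 and 10.6 in Par. Its libraries overlapped, its call (log2 fold change -1.6, SE 0.42, adjusted p = 0.013) was kept in 6 of 9 fits that left out a library or a replicate number, and with no replicate block its adjusted p was 0.27. EPSTI1, the gene that rose, by 0.69 (adjusted p = 0.035), lies on chromosome 13, where most called genes rose, and its call was kept in 3 of the 9 fits. With GC correction 36 members were lower, with no replicate block 7, and 17 without Par replicate 3. Between LM2 and BrM2, RSAD2 and IFIT1 did not pass (adjusted p = 0.42 and 0.076), while IFI27 and GBP2 were higher in LM2 and BST2 lower, by 1.45, 0.75 and -0.63.

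MHC class I molecules show peptides from inside the cell to cytotoxic T cells, and 12 of the 25 tested genes of that pathway fell and 1 rose (median -0.381). HLA-B had 399, 197 and 150 CPM in LM2, 947, 538 and 508 in Par and 283, 156 and 156 in BrM2. Replicate 1 was the highest of each line, and within each replicate number LM2 was below Par (log2 fold change -1.48, SE 0.13, adjusted p = 1.2e-05). HLA-C fell by 1.5 (SE 0.16, adjusted p = 4.2e-05). TAP1, which pumps peptides into the endoplasmic reticulum, fell by 1.04. B2M, the light chain shared by all class I molecules, did not pass (-0.3, adjusted p = 0.058), and ERAP2, a peptide trimming protease, rose (0.69, adjusted p = 0.028). With no replicate block, no gene of the class I list was called in edgeR's test, and 6 were lower at an unadjusted p under 0.05. The adjusted p of HLA-B and HLA-C in that fit was 0.083 and 0.14, and 5 genes of the class I list were lower without replicate 3. MHC class II molecules show peptides to helper T cells and are mostly made by immune cells. Of 13 tested class II genes and regulators, 8 fell and 1 rose (median -1.396). HLA-DRA had 46.7, 32.3 and 22.3 CPM in LM2, 119, 90.1 and 121 in Par and 63.3, 39.5 and 30.7 in BrM2 (log2 fold change -1.77, SE 0.2, adjusted p = 8.7e-05). HLA-DPA1, HLA-DPB1 and HLA-DRB1 fell by 2.12, 2.2 and 1.79, and CD74, the invariant chain, by 0.68. The one that rose, RFXAP (1.27), is a subunit of the factor that binds class II promoters, and lies on chromosome 13. HLA-DRA and HLA-DPA1 kept their calls with no replicate block, with 3 class II genes lower in that fit. All 4 tested APOBEC3 cytidine deaminases, which are also known as antiviral proteins, rose instead, with APOBEC3F at 1.52, APOBEC3C at 0.94 and APOBEC3B at 0.73. With no replicate block, 2 of the 4 were called higher. Of the stretches of APOBEC3F and APOBEC3B, 11.9% and 13% also occur in a related gene.

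**Figure D3:**
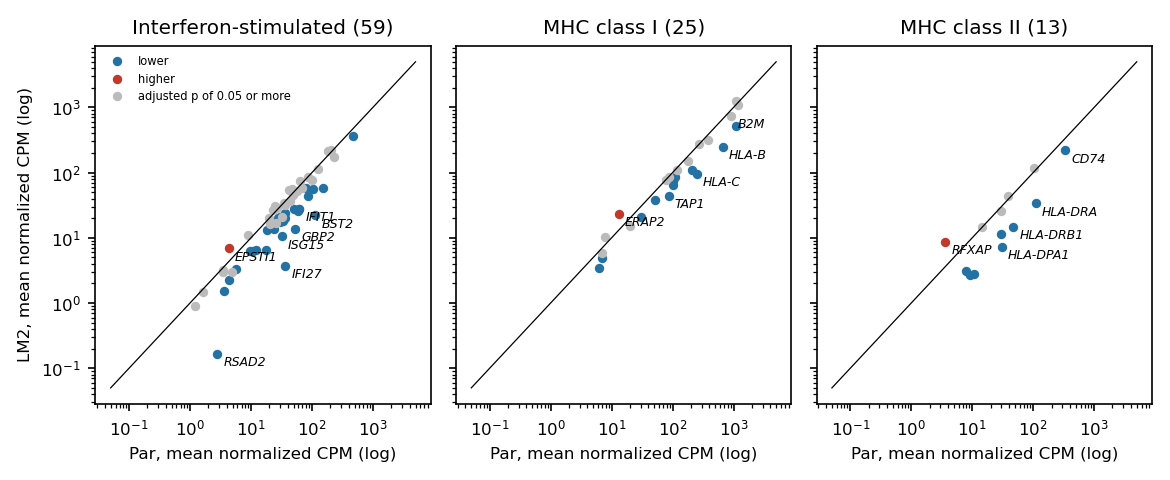
Mean normalized CPM in Par (horizontal, log axis) against LM2 (vertical, log axis) for the 59 interferon-stimulated, 25 MHC class I and 13 MHC class II genes tested, with the line of equal level; blue genes were lower and red genes higher in LM2 at an adjusted p under 0.05. Most genes lie on or below the line, RSAD2 and IFI27 farthest, and B2M close to it.

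Epithelial genes were lower in LM2. Of 10 tested keratins, 6 fell (median -0.814). KRT19, a keratin of simple epithelia, had 72.8, 34.6 and 29.1 CPM in LM2, 252, 197 and 169 in Par and 284, 104 and 185 in BrM2. It fell by 2.28 (SE 0.22, adjusted p = 2.6e-05) from Par and LM2 minus BrM2 was -2.09 (adjusted p = 5.8e-05). KRT7 fell by 1.53 and KRT8 by 0.82, and KRT18, the partner of KRT8, did not pass (-0.06, adjusted p = 0.72). Of 25 claudin, tight junction and desmosome genes, 10 fell and 3 rose (median -0.287). CLDN4, a claudin that seals tight junctions, had 7.75, 4.53 and 5.25 CPM in LM2, 107, 106 and 72.7 in Par and 32.7, 9.54 and 17.8 in BrM2 (log2 fold change -4.08, SE 0.29, adjusted p = 3.6e-06). CLDN2 fell by 3.01 and JUP, or plakoglobin, by 1.66, while CLDN11 rose by 2.41. MUC1, a membrane mucin of luminal cells, fell from 23.7, 16.9 and 18.4 to 3.57, 2.2 and 1.57 CPM (log2 fold change -3.06, SE 0.21, adjusted p = 2.8e-06), and SCNN1A, a subunit of the epithelial sodium channel, by 3.36. Of 22 tested mammary lineage factors, 6 rose and 6 fell (median 0.024), and of 19 ETS factors 3 and 6 (median -0.035). With no replicate block, 3 and 2 lineage factors and 0 and 1 ETS factors were called. SPDEF and EHF of the ETS family fell by 3.99 and 1.91, and GATA3, a luminal factor, by 1.55. ESRP2, which directs epithelial splicing, fell by 1.64. In the list of factors of epithelial-mesenchymal transition and epithelial splicing, 6 of 12 rose, and ESRP2 was the 1 that fell. VIM, or vimentin, the intermediate filament of mesenchymal cells, had 1870, 1360 and 1380 CPM in LM2, 882, 636 and 655 in Par and 1820, 1430 and 1250 in BrM2 (log2 fold change 1.08, SE 0.11, adjusted p = 2.8e-05). PRRX1, a mesenchymal homeobox factor, rose by 3.35, ZEB2 by 0.95 and SNAI2 by 0.57. Without replicate 3, and likewise without LM2 replicate 3, 3 of these factors were higher, and 2 with no replicate block. In that fit, 2 keratins and 3 junction genes were lower. The calls of ZEB2, SNAI2, KRT8 and JUP were lost with no replicate block. Other luminal factors rose. TFAP2C, or AP-2 gamma, rose from 11.8, 11.2 and 9.32 to 82.8, 71.7 and 68.2 CPM (log2 fold change 2.79, SE 0.13, adjusted p = 1.2e-07). FOXA1, which opens chromatin for steroid receptors, was at or under 3 counts in each Par library and had 0.645, 0.53 and 0.613 CPM in LM2, a ratio of summed normalized counts of 38.7 (95% exact interval for counting error 6.57 to 1560). Of 27 tested S100, annexin and galectin genes, 16 fell and 3 rose (median -0.52), among them S100A4, a calcium binding protein of motile cells, by 0.9, S100A3 by 1.64 and ANXA8 by 2.1. Without replicate 3, 8 of these genes were lower, and with no replicate block 4.

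Genes of serine and one-carbon metabolism and of the amino acid response rose more often than they fell in LM2. Serine is made from a glycolytic intermediate by PHGDH, PSAT1 and PSPH, and its carbon feeds folate enzymes that supply nucleotide synthesis. ATF4 is the transcription factor that raises these genes, amino acid transporters and tRNA synthetases when amino acids run short. PHGDH (ENSG00000092621, chr1:119711934-119744215), which catalyses the entry step, had 172, 73.1 and 61.3 CPM in LM2, 9.4, 6.2 and 5.03 in Par and 101, 54.6 and 61.4 in BrM2. Each LM2 library was far above each Par library, by a log2 fold change of 3.8 (SE 0.18, adjusted p = 1.6e-07), and LM2 and BrM2 overlapped (0.4, adjusted p = 0.064). PSAT1 had 277, 261 and 239 CPM in LM2, 118, 96.5 and 101 in Par and 148, 143 and 157 in BrM2 (log2 fold change 1.3, SE 0.11, adjusted p = 1.3e-05). Of 18 serine and folate enzymes tested, 9 rose and 2 fell (median 0.382), the mitochondrial SHMT2 and MTHFD1L and the S-adenosylmethionine synthase MAT2A by 0.81, 0.81 and 0.81. ALDH1L1, which draws folate units away from nucleotide synthesis, fell by 1.2. Of these enzymes, 2 were higher and 1 lower with no replicate block, and 6 were higher without replicate 3. ATF4 had 825, 439 and 406 CPM in LM2, 333, 227 and 225 in Par and 512, 374 and 361 in BrM2 (log2 fold change 1.04, SE 0.13, adjusted p = 0.00013), with 15% of its stretches shared with a pseudogene. In the list of tRNA synthetases and ATF4 targets, 22 of 39 rose and 2 fell (median 0.364). PHGDH is the largest rise in this list and in that of serine and folate enzymes, so the counts of these lists are not independent. The cystine transporter SLC7A11 rose by 1 and the stress protein NUPR1 by 1.48. Other ATF4 targets fell or did not pass. DDIT4, an inhibitor of mTORC1, fell by 1.55 and TRIB3, a feedback pseudokinase, by 0.51, kept in 4 and 3 of the 9 fits that left out a library or a replicate number, and TRIB3 did not pass with GC correction (adjusted p = 0.47). DDIT3, or CHOP, and the transporter SLC7A5 did not pass (adjusted p = 0.079 and 0.49). In the list of unfolded protein response genes and chaperones, 1 of 35 rose and 8 fell (median -0.209), and 2 were lower without replicate 3 and 1 with no replicate block. With GC correction 29 genes of the ATF4 list were higher and 4 lower, with no replicate block 3 were higher, and 14 were higher without replicate 3 and as many without Par replicate 3.

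**Figure D4:**
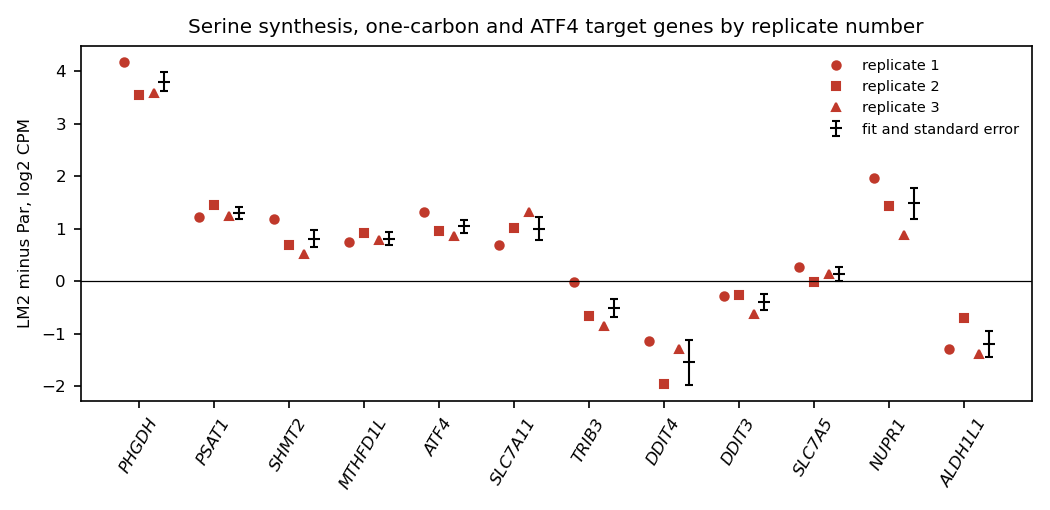
LM2 minus Par difference in log2 CPM (0.1 CPM added) for 12 genes of serine synthesis, one-carbon metabolism and the ATF4 response in replicates 1, 2 and 3, with the fitted log2 fold change and its standard error. PHGDH stands far above the rest, PSAT1, SHMT2, MTHFD1L, ATF4, SLC7A11 and NUPR1 are positive in each replicate number, and DDIT4 and ALDH1L1 are negative in each.

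Most genes of DNA replication, repair, mitosis and ribosomes did not pass, and those that passed mostly rose. Of 51 replication genes, 15 rose and 1 fell (median 0.168), of 58 repair genes 19 and 1 (median 0.19), of 54 mitosis genes 15 and 1 (median 0.299), of 79 cytosolic ribosomal protein genes 16 rose (20.3%, median 0.131) and of 40 ribosome biogenesis genes 11 and 1 (median 0.199). GINS4, a subunit of the replicative helicase, had 210, 144 and 120 CPM in LM2, 52.8, 47.6 and 38.8 in Par and 114, 95.3 and 96.1 in BrM2, and led the replication genes (log2 fold change 1.74, SE 0.13, adjusted p = 5.1e-06). FEN1, the flap endonuclease, RFC3, a clamp loader subunit, and GINS3 rose by 0.82, 0.9 and 0.85, and CDC6 and MCM4, which license origins, by 0.51 and 0.37. POLD2, a subunit of DNA polymerase delta on chromosome 7, was the replication gene that fell, by 0.49. The largest rises among repair genes were on chromosomes 13 and 15: BLM, a helicase, by 1.33, BRCA2 by 1.18 and FANCI of the Fanconi pathway by 1.11. Without the members on chromosomes 7, 13 and 15, 14 repair genes were higher and 1 lower. The proliferation marker MKI67 did not pass (-0.17, adjusted p = 0.42), and MYBL2, which drives mitotic genes, fell by 0.58. Of ribosomal proteins, RPSA rose by 0.67 and of ribosome biogenesis genes UTP4 by 0.8. These lists rested on the block. With no replicate block, 3 replication, 2 ribosome biogenesis and 1 ribosomal protein genes were higher. No repair or mitosis gene was called in that fit of edgeR, where 9 and 4 of them were higher at an unadjusted p under 0.05. The adjusted p of BLM, FANCI and RPSA there was 0.15, 0.092 and 0.42, while without replicate 3 the higher genes were 6 of replication, 8 of repair, 2 of mitosis and 4 of ribosome biogenesis. Without LM2 replicate 2, 8 ribosomal protein genes were higher. In 2 lists with shares under the background in both directions, of 75 nuclear genes of the respiratory chain, 6 were higher and 11 lower, and of 419 zinc finger genes 40 and 54.

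Genes of lipid metabolism, lysosomes, glutathione and most transporters fell more often than they rose in the fit with the replicate block. Of 26 cholesterol synthesis genes, 2 rose and 7 fell (median -0.34), and of 32 fatty acid genes 6 and 11. SCD, which desaturates fatty acids, had 475, 320 and 320 CPM in LM2, 728, 968 and 1680 in Par and 792, 403 and 770 in BrM2 (log2 fold change -1.56, SE 0.28, adjusted p = 0.0016). SREBF1, the factor that drives fatty acid synthesis, fell by 1.65, FASN, fatty acid synthase, by 1.45 and LPIN3, a phosphatidate phosphatase, by 1.89, with SREBF1 and FASN lost with no replicate block. LSS and SC5D of cholesterol synthesis fell by 1.02 and 1.1. Sterol exporters fell as well. ABCA1 had 11.3, 19.1 and 13.1 CPM in LM2, 64.9, 78.6 and 77.2 in Par and 7.68, 10.9 and 9.92 in BrM2 (log2 fold change -2.37, SE 0.14, adjusted p = 9.1e-07), and ABCG1 fell by 3.48. Of 25 ABC transporters, 2 rose and 10 fell, with ABCC3, an exporter of conjugated drugs, lower by 1.88. Of 33 glucose, lactate, nucleoside and ion transporters, 5 rose and 16 fell (median -0.391), with the water channel AQP1, the glucose transporter SLC2A1 and the lactate exporter SLC16A3 lower by 2.43, 0.77 and 1.16. Of 54 lysosome and autophagy genes, 6 rose and 19 fell (median -0.158). TFEB, the factor that drives lysosome genes, fell from 10.1, 6.05 and 6.21 to 2.63, 1.26 and 1.46 CPM (log2 fold change -2.1, SE 0.29, adjusted p = 0.0003), the protease CTSD by 1.78 and the autophagy kinase ULK2 by 1.42, and LAMP3 rose by 2.24. Part of CTSD's sequence (23%) is shared with a readthrough gene. Of 44 NRF2 targets and glutathione genes, 5 rose and 18 fell (median -0.336). AKR1C3, an aldo-keto reductase, fell by 1.18, while NQO1, the quinone reductase that is the usual marker of NRF2, rose by 1.19 from a mean of 289 to 679 CPM. Of 36 heat shock proteins and chaperonins, 7 rose, 4 fell and 25 did not pass (median 0.086), and of 27 amino acid transporters 9 rose and 6 fell. The small heat shock proteins HSPB8 and HSPB1 fell by 3.92 and 1.53 and the inducible HSPA1A, which cannot be told apart from HSPA1B over 73.7% of its stretches, by 2.08. SESN3, a stress-induced inhibitor of mTORC1, fell by 3.68. With no replicate block, no cholesterol synthesis gene was called in edgeR's test, and 1 was higher and 3 lower at an unadjusted p under 0.05. In that fit 3 fatty acid genes were called higher and 3 lower, so their excess of falls was not kept. Of ABC transporters 0 were higher and 4 lower, of other transporters 2 and 7 and of lysosome genes 2 and 6. The NRF2 list had 0 and 4 and the heat shock list 0 and 2. Without replicate 3, 3 cholesterol, 6 fatty acid, 5 ABC transporter, 9 other transporter and 9 lysosome genes were lower, and without LM2 replicate 2 10 of the NRF2 list and as few of the fatty acid and ABC genes as without replicate 3.

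Potassium channel genes and nuclear receptors were among the groups with more rises than falls. Of 17 potassium channel subunits, 9 rose and 3 fell (median 0.735), and 7 were higher with no replicate block. KCNQ3, a voltage-gated subunit, had 2.93, 6.37 and 5.71 CPM in LM2, 0.105, 0.339 and 0.668 in Par and 3.32, 3.27 and 3.93 in BrM2 (log2 fold change 3.69, SE 0.36, adjusted p = 2.8e-05). KCNK2, a two-pore leak channel, had 6.21, 9.39 and 7.89 CPM in LM2, 1.21, 0.484 and 0.747 in Par and 0.812, 1.28 and 1.05 in BrM2, so that its rise of 3.26 set LM2 apart from BrM2 as well (2.87, adjusted p = 5.9e-05). The accessory subunit KCNE4 and KCNK1 rose by 3.53 and 1.95, and KCNIP3, a calcium sensor that binds voltage-gated channels, fell by 1.15. Of 30 nuclear receptors, 12 rose and 5 fell (median 0.178), and 9 were higher with no replicate block. Among these were RORA (3.14), on chromosome 15, and NR4A1 (2.36), an immediate-early receptor, while VDR, the vitamin D receptor, and PPARG, the receptor of fat cells, rose by 1.06 and 0.95. Without replicate 3, 2 nuclear receptors were lower.

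Part of the differences lay in blocks of neighbouring genes. Of the 12290 tested genes placed on a chromosome of GRCh38.p14, those of chromosome 13 had a median log2 fold change of 0.495, with 53.5% of its 226 genes higher and 4.42% lower. Chromosome 15 had a median of 0.232 with 33.3% of 393 genes higher and 7.12% lower, and chromosome 7 a median of -0.346 with 7.13% of 589 genes higher and 40.6% lower. The other chromosomes had medians between -0.179 and 0.117. Within chromosomes, 20 Mb windows with at least 20 tested genes were compared. The lowest was the end of the short arm of the X chromosome, from 0 to 20 Mb, where 50 of 58 genes were lower and 2 higher (median -0.99), and the next window, from 20 to 40 Mb, had a median of -0.625. From 40 Mb on, the X windows had medians between -0.219 and 0.211. MAGEB2, which rose, lies in the second of the low windows. The first 20 Mb of chromosome 4 had a median of -0.526, with 49 of 86 genes lower and 3 higher, and on chromosome 15 the window from 80 to 100 Mb, with BLM and FANCI, had a median of 0.715, with 48 of 76 genes higher and 4 lower. The medians were alike in replicates 1, 2 and 3 (0.5 CPM added), -1.02, -0.94 and -1.01 for the end of the X chromosome and 0.622, 0.598 and 0.7 for the window of chromosome 15. They were -1.03 and 0.7 with GC correction and -0.967 and 0.724 with no replicate block. Between LM2 and BrM2 the same windows had medians of 0.0824 and 0.779, and chromosomes 13 and 7 of 0.467 and 0.000599. The last windows of chromosomes 8 and 20, with medians of -0.501 and -0.487, had -0.101 and -0.0971 with GC correction. DNA was not measured in these libraries, and whether the blocks follow copy number was not tested.

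**Figure D5:**
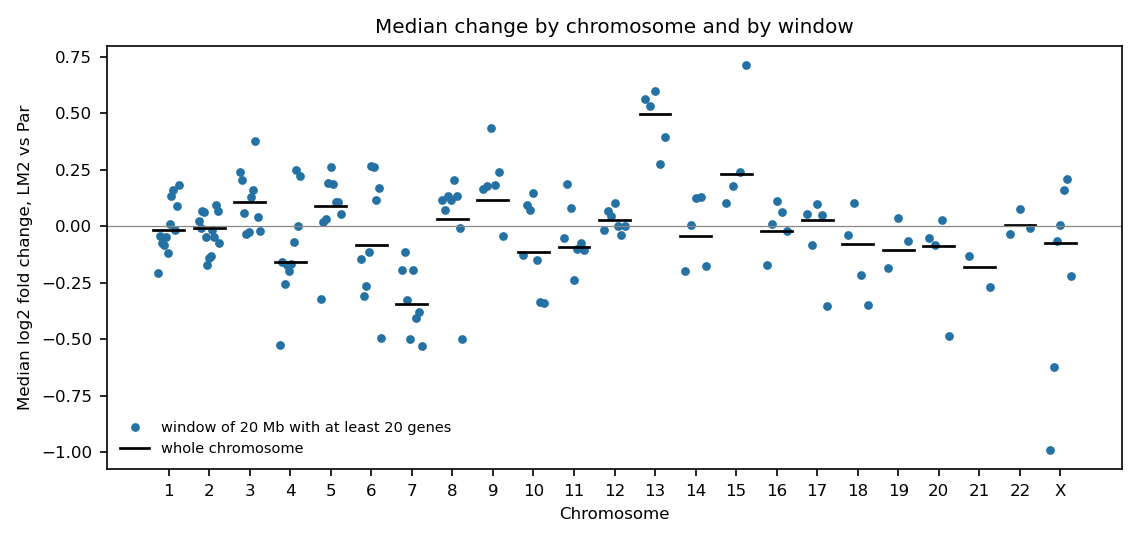
Median log2 fold change of LM2 vs Par for the tested genes of each chromosome (black lines) and for 20 Mb windows with at least 20 tested genes (points, in order along the chromosome). Chromosome 13 lies above the others and chromosome 7 below, and single windows of chromosomes 15, 4 and X reach 0.715, -0.526 and -0.99.

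The blocks touched the gene groups unevenly. Of the interferon-stimulated genes, 27 of the 54 outside chromosomes 7, 13 and 15 fell, with a median of -0.498. Outside these chromosomes, 22 of 38 genes of the ATF4 list rose and 2 fell, 14 of 45 replication genes rose, and 8 of 18 collagens rose and 5 fell. The class I and class II genes of the MHC lie mostly on chromosome 6, where the window from 20 to 40 Mb had a median of -0.308, with 76 of 193 genes lower (39.4%) and 5 higher, and the next one, from 40 to 60 Mb, a median of -0.266, with 37.8% lower. LCP1 and DCLK1 are on chromosome 13, and their rises of 6.05 and 5.19 were far beyond that chromosome's median.

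The setting used to count by strand was not given in the sources used here, and without strand, reads of a gene and of a gene on the other strand cannot be told apart. Among the genes named above, exons overlap those of a gene on the other strand for BOC, CEMIP, CTSD, CXCL16, DDIT3, ENG, ESRP2, FANCI, GINS4, HAS2, HLA-DPA1, HLA-DPB1, KRT18, KRT7, KRT8, LOXL1, LOXL4, LSS, MAT2A, SCNN1A, SESN3, SLC16A3, SLC7A11, SREBF1, TAP1, TENM1 and VIM. FEN1 overlaps FADS2 on the same strand. The HLA genes are polymorphic relatives of each other, and their counts depend on how reads shared among them were assigned.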

How the data were processed

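Poly(A) RNA of Par, LM2 and BrM2, 3 passages each, was sequenced with a stranded kit. The deposited values were raw counts per gene, which the authors made with STAR 2.7.0 after CASAVA 1.8.2, per the submitters' processing notes, where the builds hg38 and hg19 are named. A second table holds the authors' DESeq2 comparisons (fold changes and adjusted p-values) and was not used. The table has 58884 genes, after the same counts listed under more than 1 symbol were kept once. Counts were tested with edgeR 4.0.16 (quasi-likelihood test, TMM factors, R 4.3.3) in 1 model of all 9 libraries with line and replicate number, with Benjamini-Hochberg adjustment across the 13001 tested genes and a threshold of 0.05. Genes were kept where the highest normalized count exceeded 49.24, set by the replicates' Jaccard index as HTSFilter does, and the kept genes held 99.64 to 99.77% of the counts.

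The replicate number was a block because the comparison was defined that way, and it was not chosen from the correlations. Libraries with the same number had correlated deviations (r = 0.884, 0.503 and 0.809 between LM2 and Par). LM2 replicate 2 deviated more with Par replicate 3 (r = 0.676) than with Par replicate 2, so the numbers set replicate 1 apart and not replicate 2 from 3. With the block the common dispersion was 0.0207, and without it 0.11. The GC correction used a smooth trend of log counts on transcript GC content per library (mgcv 1.9.3), since LM2 minus Par fell with GC content (Spearman correlation across genes -0.254). The model was tested on simulated data.

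Genes were named by a rule: up to 4 largest rises and 4 largest falls among the called members of each list, core members of a list whatever their result, and the 15 largest rises and falls whose mean reached 50 counts and whose libraries did not overlap, leaving out genes the study names. Some genes that meet the rule are not reported here. The comparison, lists and members were chosen with earlier results of these data known. p-values of the main fit measure the spread between cultures that is left after the shared replicate effect is removed, pooled over the 3 lines. That spread is smaller than the one with no block (common dispersion 0.0207 against 0.11). A fold against a group at 0 takes 3 counts per library as the limit, and intervals cover counting error only. Positions and promoter sequences are from RefSeq on GRCh38.p14. The alternatives were other scaling, filters, tests and sets of libraries, and tables and figures were made with Python 3.11.15.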

Additional observations from a re-analysis of the deposited data

How the results depend on the processing

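Against 2011 higher and 2476 lower genes, the alternatives with the most effect were the fit with no replicate block (542 higher and 583 lower) and the fits that left out libraries, in which 1002 to 2164 genes were higher and 1128 to 2467 lower. The lowest counts came without replicate 3, and LM2 replicates 2 and 3 and Par replicate 3 each lowered a count by over 1.5 times as given above. In fits that left out a library, its line kept 2 libraries and shared 1 estimate of the spread with the others. RLE factors (2275 and 2314), no filter (2285 and 2988), filterByExpr (2357 and 2715), DESeq2 (2269 and 2320), the 6 libraries alone (2248 and 2810) and GC correction with the replicate block (2960 and 2905) stayed within 1.5 times. Of 228 genes chosen by the naming rule, 219 were called, 82 lost their call with no replicate block and 16 without replicate 3. No direction was reversed for a gene called in the main fit or in the alternative. Changes of sign in genes called in neither were not counted. Of 55 lists with at least 5 tested members and a median of at least 0.15 in size, 3 changed the sign of the median under any alternative: laminins and other basement membrane proteins, chemokines, and matrix crosslinking enzymes, the last when members on chromosomes 7, 13 and 15 were left out, an alternative chosen after seeing the data. The cause was not tested. Low counts limit genes at or under 3 counts in a line.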
